A study of Caenorhabditis elegans with 2 samples.

Results

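The sites described here are places inside introns, away from promoters, where the transcription factor ELT-3 was mapped by chromatin immunoprecipitation and sequencing in Caenorhabditis elegans embryos. Of the 12676 nuclear regions in the list called on both replicates pooled, the 2000 of highest score were taken. A site was kept when its summit lay in the body of a protein-coding gene, in no exon of any gene, and outside the 5′ window of every protein-coding gene, which reaches 1000 bp upstream and 500 bp downstream of the annotated end. This left 362 intronic sites. The same 2000 regions held 951 promoter sites, with the summit in such a 5′ window, and 485 intergenic sites away from promoters. A further 201 summits lay in exons and 1 in none of these classes.

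The study had 1 group with 2 biological replicates and no second condition. Strain OP75, of genotype unc-119(ed3) III; wgIs75, carried an integrated transgene aimed at elt-3, and the immunoprecipitated protein was ELT-3 tagged with enhanced green fluorescent protein. Material was whole embryos of mixed stage with the sexes pooled, so the epidermis was not separated from other tissues. The labels name a control, and control data were not analysed here.

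ELT-3 is a zinc finger protein of the GATA family, whose members bind DNA around the letters GATA. In the worm it acts in the epidermis, the tissue that makes the collagen cuticle, downstream of the factor that specifies epidermal fate. Worm introns can hold enhancers, promoters of shorter transcripts of the host gene, and genes for small structural RNAs, so an intronic position alone does not say which of these a site lies at. Below, a GATA match is AGATAA or the form AGATAG, or likewise TGATAA or the form TGATAG, on either strand, within 50 bp of a summit. The family is long known to favour these hexamers. All coordinates are on ce11.

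The windows printed here, on the plus strand and reaching 50 bp to either side of the summit, show intronic sites with GATA matches in capitals. They come from 3 of the 15 sites of highest score, arrd-10, mom-1 and spp-28, and from hosts in gene groups tied to the epidermis or the GATA family, which are egl-27, wrt-9, col-173, egl-18 and lin-1.
arrd-10 (chrII:12942658-12942758): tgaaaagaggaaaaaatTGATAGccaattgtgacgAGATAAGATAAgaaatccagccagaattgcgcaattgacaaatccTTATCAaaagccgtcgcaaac
mom-1 (chrX:6296539-6296639): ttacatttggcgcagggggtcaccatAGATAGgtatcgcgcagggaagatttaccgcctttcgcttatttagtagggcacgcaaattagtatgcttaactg
spp-28 (chrIII:4189763-4189863): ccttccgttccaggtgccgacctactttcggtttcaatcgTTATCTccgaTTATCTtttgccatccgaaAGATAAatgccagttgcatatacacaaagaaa
egl-27 (chrII:6842819-6842919): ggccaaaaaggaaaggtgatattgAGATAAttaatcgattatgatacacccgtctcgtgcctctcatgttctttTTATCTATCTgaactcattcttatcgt
wrt-9 (chrX:1586882-1586982): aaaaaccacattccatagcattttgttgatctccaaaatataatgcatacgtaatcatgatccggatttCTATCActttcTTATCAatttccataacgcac
col-173 (chrX:6876483-6876583): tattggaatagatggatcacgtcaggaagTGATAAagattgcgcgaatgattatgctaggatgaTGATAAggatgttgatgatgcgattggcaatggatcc
egl-18 (chrIV:1904372-1904472): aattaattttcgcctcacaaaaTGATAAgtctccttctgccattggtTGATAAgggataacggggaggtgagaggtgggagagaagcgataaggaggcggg
lin-1 (chrIV:2284622-2284722): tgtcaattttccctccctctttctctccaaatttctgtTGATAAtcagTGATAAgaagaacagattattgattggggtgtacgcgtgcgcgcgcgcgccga
Matches occur in both orientations, and in arrd-10 and egl-27 a pair of matches shares letters. The arrd-10 window holds 4 matches, the spp-28 and egl-27 windows 3 each, and the wrt-9, col-173, egl-18 and lin-1 windows 2 each. In egl-18 and lin-1 both matches are TGATAA on the plus strand.

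A second set shows sites with other sequences that were frequent at these summits. Capitals mark the GA repeat unit GAGAGA, the motif CGTCTC and the motif ACGCAG on either strand.
Y111B2A.12 (chrIII:12612604-12612704): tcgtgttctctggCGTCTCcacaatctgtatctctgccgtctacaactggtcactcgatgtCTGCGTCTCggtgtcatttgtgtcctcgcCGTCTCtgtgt
zfp-1 (chrIII:8802061-8802161): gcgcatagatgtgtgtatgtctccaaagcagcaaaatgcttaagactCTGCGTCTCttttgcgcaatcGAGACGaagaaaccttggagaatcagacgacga
Y43F8B.2 (chrV:19529331-19529431): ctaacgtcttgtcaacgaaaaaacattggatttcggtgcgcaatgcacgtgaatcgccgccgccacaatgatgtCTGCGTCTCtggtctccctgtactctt
pqn-41 (chrIII:1926523-1926623): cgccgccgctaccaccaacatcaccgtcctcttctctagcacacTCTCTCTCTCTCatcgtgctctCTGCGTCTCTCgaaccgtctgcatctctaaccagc
Y67D8A.2 (chrIV:3227873-3227973): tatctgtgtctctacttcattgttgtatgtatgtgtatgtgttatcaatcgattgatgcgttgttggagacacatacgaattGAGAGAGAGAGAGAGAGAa
In Y111B2A.12, zfp-1, Y43F8B.2 and pqn-41, CGTCTC and ACGCAG overlap in a run of 9 letters. These 4 windows hold no GATA match. The Y67D8A.2 window has a run of repeated GA and also a GATA match, which is left in lower case in this set.

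The score of a region is the authors' own value with no stated scale, and its scale differs between lists. It chose the members, so it is described here and not tested. Over the 362 sites the pooled score had a lowest value of 27.0, a median of 34.9 and a highest value of 140.0. The members just inside the limit of 2000 regions were ben-1, at rank 1987, and B0393.5, at rank 1992, both with 27.0. The intronic candidates just outside were ain-2, at rank 2006 with 26.9, and lag-1, at rank 2013 with 26.8, so the limit cuts through a smooth range. Median scores of promoter and intergenic sites among the 2000 were 34.8 and 34.9.

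Most of the intronic sites had a summit nearby in each replicate list. The replicate lists include background regions, with 19139 nuclear regions in replicate 1 and 26357 in replicate 2. The pooled list was called on these same replicates, so a match is no independent measure of reproducibility. A summit of the replicate 1 list lay within 100 bp of 339 sites, 93.6%, and a summit of the replicate 2 list within 100 bp of 314 sites, 86.7%. Both lists held 292 sites, or 80.7% (exact 95% interval 76.2 to 84.6%), replicate 1 alone held 47, replicate 2 alone 22, and neither held 1. The share in both lists was 82.3% among promoter sites and 82.7% among intergenic sites. Replicate 1 summits lay a median of 5 bp from the pooled summit and replicate 2 summits a median of 18 bp. Where a site had a match, its score ranged from 8.44 to 93.0 in replicate 1 (median 22.2) and from 4.46 to 62.5 in replicate 2 (median 15.5).

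**Figure D1:**
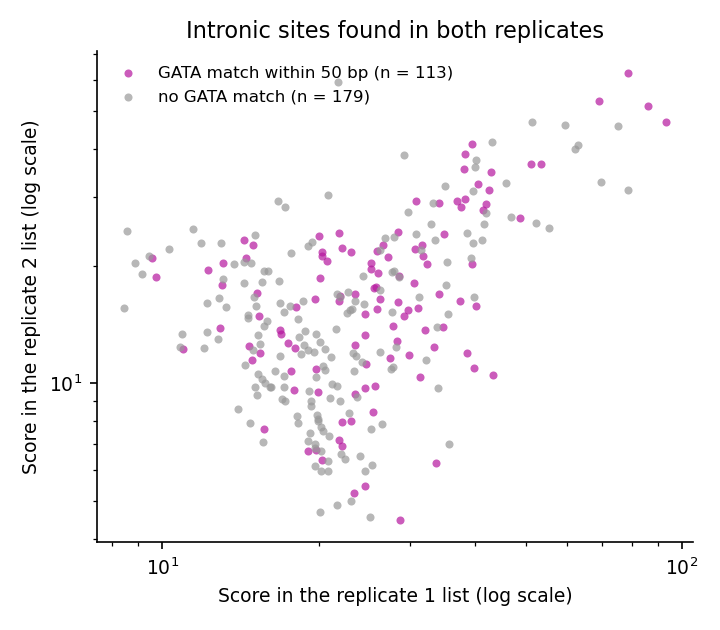
Score in the replicate 1 list (horizontal axis) and in the replicate 2 list (vertical axis), both on log scales with no stated unit, for the 292 intronic sites found in both lists. Purple points are the 113 sites with a GATA match within 50 bp of the summit and grey points the other 179, and the points spread widely around any single line.

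Agreement in order between the replicates was loose. Spearman's rho between the 2 scores was 0.36 over the 292 sites, which share their libraries and were chosen by the pooled score, a choice that narrows the range. Only 133 of the 362 sites, 36.7%, were among the 2000 highest nuclear regions of both replicate lists. The authors' thresholded list held the 116 intronic sites down to rank 614 and none from rank 618 on, so for these sites it was a limit on the pooled score and no separate measure of agreement. It held 32.0% of intronic, 29.1% of promoter and 34.4% of intergenic sites.

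The highest intronic sites lay in genes of varied function. The arrd-10 site, in intron 6 of an arrestin-domain gene (chromosome II, 12942617 to 12942784), scored 140.0 in the pooled list, 93.0 in replicate 1 and 46.9 in replicate 2. The mom-1 site, in intron 7 of the gene for the Porcupine homologue that modifies Wnt ligands (chromosome X, 6296507 to 6296697), scored 139 in the pooled list, 78.8 in replicate 1 and 62.5 in replicate 2. Both regions are narrower than the 380 bp that 358 of the 362 regions span. The pck-2 site, in a gene for phosphoenolpyruvate carboxykinase, scored 138 in the pooled list, 86.1 in replicate 1 and 51.4 in replicate 2, and held 2 GATA matches. The nab-1 site, in the neurabin gene, scored 120 in the pooled list, 69.4 in replicate 1 and 53.0 in replicate 2, and held 1 match.

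The following sites in that order had no GATA match. They lay in Y111B2A.12 (pooled score 117), zfp-1 (111), nhr-3 (110), pxn-1 (103), cutl-18 (102), jun-1 (101.2) and Y41G9A.17 (98.9). Among these, zfp-1 encodes the homologue of the chromatin protein AF10, nhr-3 a nuclear hormone receptor, pxn-1 a peroxidasin and jun-1 the Jun subunit of AP-1. The remaining sites of the 15 highest lay in C48E7.1 (91.7), spp-28 (88.9), Y43F8B.2 (86.2) and the dynein heavy chain gene dhc-4 (85.6), with 3 GATA matches each in C48E7.1 and spp-28. Of these 15 sites, 6 held a GATA match and 14 were in both replicate lists. The exception was dhc-4, with a score of 46.4 in replicate 2 and no replicate 1 summit within 100 bp.

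Host genes were mostly hit once. The 362 sites lay in 295 genes, or 1.48% of the 19973 annotated protein-coding genes, and 2 sites lay in more than 1 gene body. Of the hosts, 243 had 1 site, 40 had 2 and 12 had at least 3. Hosts were long genes, with a median length of 9461 bp counted per site, against 2027 bp over all protein-coding genes. Long genes also hold more intron, so these lengths say nothing of a preference.

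The gene with most sites was zfp-1, with 5 along 7174 bp. Their pooled scores from low to high coordinate were 42.2, 40.0, 61.5, 50.8 and 111, and all 5 were found in both replicates. Only the middle one, at 8797515 on chromosome III, held a GATA match, an AGATAG inside a GA repeat. The gene pqn-41, which encodes a protein rich in glutamine and asparagine, had 4 sites in a single intron of 10372 bp, with scores of 48.8, 48.0, 68.6 and 71.4 in order of coordinate. None of these 4 held a GATA match, and all were found in both replicates.

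Another 10 genes had 3 sites each. They were C34B4.2, Y67D8A.2, elt-3, hlh-30 (the TFEB homologue), lag-1 (the DNA-binding factor of Notch signalling), ldb-1 (a LIM-domain binding cofactor), let-526 (an ARID subunit of SWI/SNF), max-1 (axon guidance), mnk-1 (a kinase downstream of MAP kinases) and tir-1 (the SARM1 homologue). Sites with a GATA match numbered 2 of 3 in Y67D8A.2, elt-3, hlh-30 and let-526, 1 of 3 in C34B4.2, lag-1, ldb-1 and mnk-1, and 0 of 3 in max-1 and tir-1. Clustered sites are not independent of each other, and 16 members had another member's summit under 380 bp away.

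At elt-3 itself (chromosome X, 13934874 to 13941216), 3 intronic sites are printed here with GATA matches in capitals, because this is the gene of the tagged factor.
elt-3 (chrX:13937303-13937403): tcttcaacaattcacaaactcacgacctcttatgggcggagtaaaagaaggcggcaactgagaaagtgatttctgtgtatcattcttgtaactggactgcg
elt-3 (chrX:13938122-13938222): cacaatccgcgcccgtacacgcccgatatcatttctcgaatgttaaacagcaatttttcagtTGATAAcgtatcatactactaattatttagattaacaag
elt-3 (chrX:13939547-13939647): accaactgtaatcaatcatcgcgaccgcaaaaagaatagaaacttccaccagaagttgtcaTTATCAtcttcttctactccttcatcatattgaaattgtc
In coordinate order their pooled scores were 75.02, 41.9 and 48.1. The scores were 47.0, 26.2 and 33.3 in replicate 1 and 26.7, 16.5 and 12.4 in replicate 2. The site of highest score had no GATA match, and each of the others had a single TGATAA, 15 bp and 14 bp from the summit. These 2 sites with a match lay in the 5′ window of another annotated transcript. The transgene encodes tagged ELT-3, so signal from it and from the chromosomal gene cannot be told apart. Another member lay in intron 1 of unc-119, the gene that is mutated in the strain and is commonly used to mark such transgenes. It scored 29.9 and was found in replicate 1 alone. These 4 sites were all the members within 20 kb of either gene.

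The sites lay well inside their genes by the gene's own 5′ end. The summit was 505 to 63711 bp downstream of it, with a median of 3309 bp, and 224 sites (61.9%) were over 2000 bp from any protein-coding gene's 5′ end. The farthest site lay in ttn-1, the titin gene, and in the 5′ window of another annotated transcript. The introns that held the sites had a median length of 2917 bp. Introns over 1000 bp held 282 sites, or 77.9% (exact 95% interval 73.3 to 82.1%), against 52.5% of eligible intron bases, that is, bases where a summit would have met the rule. The first intron held 121 sites, or 33.4% (28.6 to 38.5%), against 18.5% of eligible bases. Sites were placed in the longest transcript with the summit in an intron, and bases in each gene's longest transcript alone. These shares carry no test, since mappability and calling along introns were not modelled.

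"Away from promoters" held for gene 5′ ends and not for every transcript. The rule used 1 start per gene, and 73.5% of the sites lay in hosts with more than 1 annotated transcript start. Starts only a few bp apart were counted as separate, and no such share was taken over all genes. Of the 362 sites, 92 lay in the 5′ window of another protein-coding transcript, or 25.4% (21.0 to 30.2%), against 13.2% of eligible intron bases. The first intron held 47.8% of these 92 sites and 28.5% of the other 270. GATA matches were present at 35 of the 92 (38.0%) and at 92 of the 270 (34.1%), and the shares found in both replicates were 80.4% and 80.7%. For example, the highest zfp-1 site and the jun-1 site lay in such windows, at 10576 bp and 15239 bp from the genes' outermost 5′ ends. Their distances from the nearest start of a host transcript were -708 bp and -995 bp, where a negative value lies upstream.

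**Figure D2:**
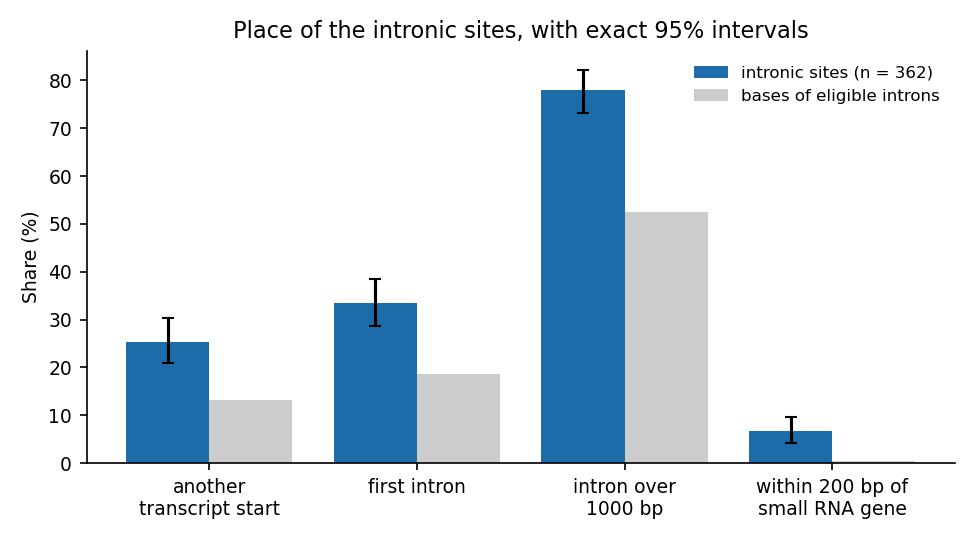
Share (%) of the 362 intronic sites (blue, with exact 95% intervals) and of the bases of eligible introns (grey) in 4 kinds of place. Sites exceed bases in each, with 25.4% against 13.2% at another transcript start, 33.4% against 18.5% in a first intron, 77.9% against 52.5% in an intron over 1000 bp, and 6.63% against 0.381% within 200 bp of a small RNA gene.

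Some sites lay at small RNA genes nested in the intron. Genes for tRNA, snoRNA, snRNA or rRNA lay within 200 bp of 24 sites, 6.63% (4.29 to 9.70%), against 0.381% of eligible bases. Of these, 11 were at snoRNA genes, 11 at tRNA genes and 2 at snRNA genes. They included 3 of the 15 highest sites, with pxn-1 and cutl-18 at snoRNA genes and dhc-4 at an snRNA gene. The shares were 5.05% among promoter sites and 6.60% among intergenic sites. GATA matches were present at 3 of the 24 (12.5%) and at 124 of the other 338 (36.7%), and 21 of the 24 were found in both replicates. These windows averaged 49.1% GC ± 7.76 (SD, n = 24 windows).

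Sites were spread over all nuclear chromosomes. Their density per Mb of eligible intron was 14.7 on chromosome I, 12.5 on II, 14.1 on III, 10.6 on IV, 11.2 on V and 15.9 on X. By exact Poisson 95% intervals the lower limit on X was 12.5 and the upper limit on IV 14.0, so even the highest and lowest overlapped. The share with a GATA match ran between 27.0% on III and 39.6% on II, again with overlapping intervals. Bases marked as repeats in the reference averaged 17.4% of the site windows and made up 52.2% of eligible intron bases.

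GATA matches were more frequent at the intronic summits than 500 bp away. A match was present at 127 of the 362 sites, 35.1% (exact 95% interval 30.2 to 40.2%). For 312 sites a flank window of the same width, centred 500 bp away and free of exons, could be had. Of these, 114 summit windows (36.5%) and 65 flank windows (20.8%) held a match, with 89 pairs positive at the summit alone and 40 at the flank alone (exact McNemar test, two-sided, adjusted p = 7.66e-05 over the 4 GATA tests). Over all 229545 tiles of the same width within eligible introns, 18.2% held a match. With flanks at 300 bp the shares were 36.6% and 33.8% and the test was not passed (exact McNemar test, adjusted p = 0.51). Summit windows had a mean GC content of 41.9% ± 8.57 and flank windows 34.1% ± 8.44 (SD, n = 312 windows each).

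Among the matches, TGATAA was the most frequent hexamer. The 362 windows held 198 matches, of which 95 were TGATAA, 49 AGATAA, 39 AGATAG and 15 TGATAG. At least 2 matches were present at 46 sites and at least 3 at 19 sites, up to 4. Within 25 bp of the summit lay 60.1% of the 198 matches (52.9 to 67.0%), and 53.1% of the possible positions. The hlh-30 site at 4032555 on chromosome IV had 4 matches with a score of only 27.6, while nhr-3 had none with a score of 110.

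**Figure D3:**
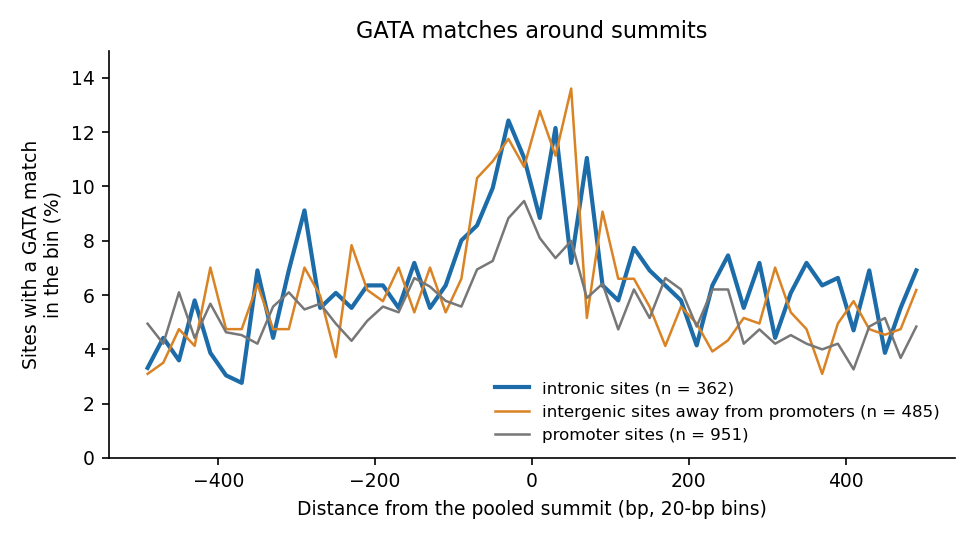
Share of sites with a GATA match (%, vertical axis) in each 20-bp bin of distance from the pooled summit (bp, horizontal axis) for the 362 intronic sites (thick blue), 485 intergenic sites (orange) and 951 promoter sites (grey). All 3 lines are highest in bins near the summit.

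The intronic sites held GATA matches more often than promoter sites among the same 2000 regions. The shares were 35.1% and 27.7%, or 127 of 362 intronic and 263 of 951 promoter sites (Fisher's exact test, two-sided, adjusted p = 0.0135 over the 4 tests). The shares at intronic and intergenic sites were 35.1% and 38.1%, a difference of -3.06 percentage points that did not pass the exact test (adjusted p = 0.39). In the same exact test, the difference from promoters was no longer past the threshold with matches sought within 25 bp (4.72 points, adjusted p = 0.11), without the sites at another transcript start (6.42 points, adjusted p = 0.064), or for TGATAA alone (5.17 points, adjusted p = 0.058). It also fell just short of the threshold in a Cochran-Mantel-Haenszel test within quintiles of GC content (5.87 points). The difference was 18.3 points among the first 1000 regions and 21.6 points in the thresholded list. At ranks 1001 to 2000 the shares were 23.5% of intronic and 27.2% of promoter sites, the other direction, and that split was not tested. Mean GC content was 41.9% ± 8.71 in intronic windows, 42.9% ± 8.67 in promoter windows and 41.4% ± 8.03 in intergenic windows (SD over sites).

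The share with a match was highest among the intronic sites of best rank. It was 52.0% (41.7 to 62.2%) at ranks 1 to 500, 40.0% (29.5 to 51.2%) at 501 to 1000, 26.4% (17.7 to 36.7%) at 1001 to 1500 and 20.5% (12.6 to 30.4%) at 1501 to 2000. For promoter sites the same bins gave 32.0, 24.9, 25.4 and 28.8%, and for intergenic sites 44.6, 35.8, 31.7 and 39.3%. In the last bin the intronic share was thus below both others and in the first bin above both. The intronic interval of the last bin ended where the intergenic one, 30.4 to 48.8%, began, and the other intronic and intergenic intervals overlapped. This split was chosen after the data had been seen and was not tested.

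**Figure D4:**
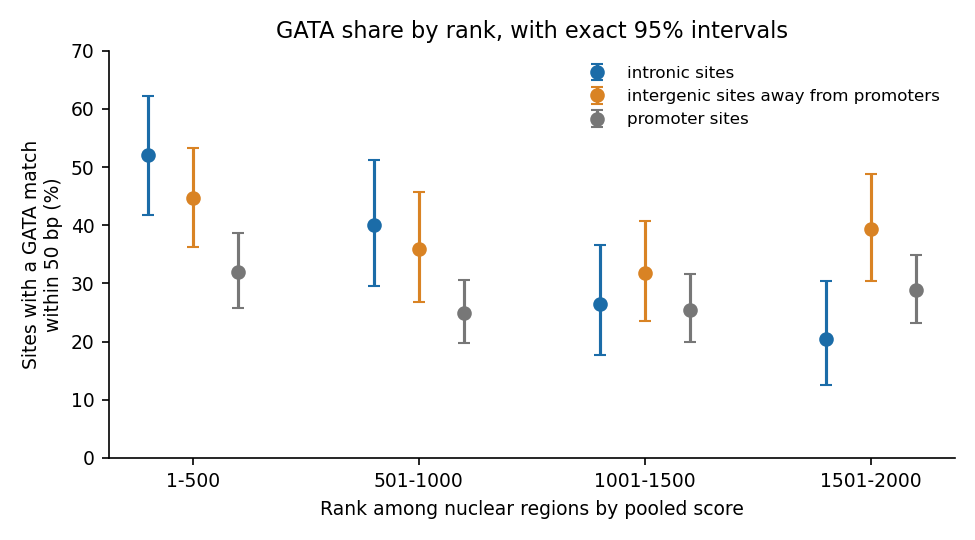
Share of sites with a GATA match within 50 bp of the summit (%, vertical axis) by rank of the pooled score (horizontal axis), for intronic (blue), intergenic (orange) and promoter sites (grey). Points are shares and bars exact 95% intervals, and the intronic shares run 52.0, 40.0, 26.4 and 20.5% by bin.

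Matches were also more frequent where both replicates found the site. They were present at 113 of the 292 sites in both lists, 38.7%, and at 14 of the other 70 (11.4 to 31.3%) (Fisher's exact test, two-sided, adjusted p = 0.00653). The median pooled scores of these sites were 36.5 and 30.5 and the repeat-marked shares of their windows averaged 15.9% and 23.6%, and the part of either in the result was not tested. The exact test's call was lost in 8 of the 11 alternatives tried, among them match distances of 50 bp (adjusted p = 0.060) and 200 bp (adjusted p = 0.25). Also among the 8 was a scramble of the GATA hexamers in their place, a control for which a missing call is no loss.

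Sequences other than GATA also differed between summits and flanks. A panel of 18 motifs was tested in the 312 pairs (exact McNemar tests, Benjamini-Hochberg over the panel). Of these, 7 were higher at summits (38.9% of the panel) and 2 were lower (11.1%). The number lower was 1 in the ranking without replicate 1 and 1 in that without replicate 2, and 0 in the 94 pairs of like GC content. The number higher was 5 in those 94 pairs. GAGAGA, a GA repeat unit, was present in 29.5% of summit windows, 6.73% of flanks and 4.26% of all intron tiles (exact test, adjusted p = 5.09e-12). CGTCTC was present in 16.7% of summit windows and 2.56% of flanks (exact test, adjusted p = 9.16e-09), and ACGCAG in 13.8% and 1.28% (adjusted p = 1.67e-08). The panel was drawn up with earlier results of these data known, so these calls are not independent support for those sequences.

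Of the GATA hexamers in the panel, TGATAA and AGATAG passed, and the difference from the others was not tested. TGATAA was present in 20.5% of summit windows and 7.69% of flanks (exact test, adjusted p = 1.22e-05), and AGATAG in 10.6% and 3.85% (adjusted p = 0.00435). CTTATCA, which contains TGATAA on the other strand, was present in 11.2% and 1.60% (exact test, adjusted p = 2.72e-06). AGATAA was present in 9.94% and 9.29%, and TGATAG in 4.81% and 2.88%, and neither passed. The bare letters GATA were present in 60.3% and 50.3% (exact test, adjusted p = 0.0342). All of these overlap one another in sequence.

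The lower motifs were rich in A and T. The control motif, a scramble of the GATA hexamers counted as 1 motif, was AGTAAA or the form AGTAAG, or likewise TGTAAA or the form TGTAAG. It was present in 12.5% of summit windows and 21.8% of flanks (exact test, adjusted p = 0.00716). TTTATG was present in 5.45% and 10.9% (exact test, adjusted p = 0.0342). The E-box forms CACGTG and CAGCTG, the homeodomain core TAATTA, the AP-1 site TGACTCA, the nuclear receptor half-site AGGTCA, the letters AACCGG and TTTCNNTTT did not pass.

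The full scan of 6-mers gave the same leading sequences. Of all 6-mers, with reverse complements merged, 64 were higher at summits (3.08%) and 56 lower (2.69%) at an adjusted p under 0.05. In the ranking without replicate 2 the number higher was 40. After GAGAGA, the smallest p belonged to AGAGAC (21.2% of summit windows and 3.21% of flanks, exact test, adjusted p = 1.71e-09). Next came CGTCTC with ACGCAG, then the GA-rich words AAGAGA (27.9% of summit windows and 9.29% of flanks) and AGAGAG (24.7% of summit windows and 7.69% of flanks), and last AGAGAA (28.2% and 10.6%) and AGAGAT (17.9% and 4.49%). The most strongly lower were runs of A and T such as AAAAAT (19.9% and 56.7%, exact test, adjusted p = 7.8e-19) and AAAAAA (18.3% and 49.0%, adjusted p = 8.02e-13). In the 94 pairs whose GC contents lay within 5 points, 2 of the 64 remained called and higher. In those pairs the GATA hexamers still differed, with 43.6% at summits and 17.0% at flanks.

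**Figure D5:**
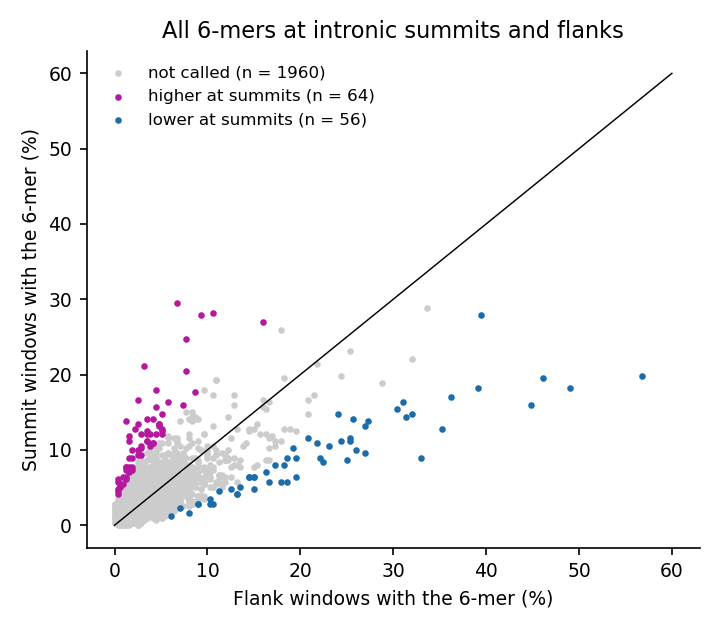
Share of the 312 flank windows (%, horizontal axis) and of the 312 summit windows of intronic sites (%, vertical axis) that hold each 6-mer, one point per 6-mer. Purple points are the 64 called higher at summits, blue points the 56 called lower and grey points the others, and the line marks equal shares.

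Against promoter sites, few 6-mers stood apart. None was called higher at intronic sites (0% of all, Fisher's exact tests with Benjamini-Hochberg adjustment), where 86 had an unadjusted p under 0.05. Lower at intronic sites were 6 (0.288%), where 115 had an unadjusted p under 0.05. None of the 6 calls held in every alternative, since 0 were lower in the ranking without replicate 1, within 25 bp, among the first 1000 regions and without other transcript starts. The 6 called were GCCAGC, present at 0.552% of intronic and 5.05% of promoter sites (exact test, adjusted p = 0.0399), AGTGCG (2.76% and 8.73%), GGCGCA (2.49% and 8.31%), CACGCG (2.49% and 8.20%), TCTGCA (1.93% and 7.15%) and GCGCAC (4.14% and 10.6%). GAGAGA was present at 27.9% of intronic and 23.8% of promoter sites (exact test, adjusted p = 0.64), and CGTCTC at 16.02% and 16.3%.

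The run of 9 letters in which GAGACG, the other strand of CGTCTC, overlaps ACGCAG was counted after the data had been seen. It was present at 26 intronic sites, 7.18% (4.75 to 10.3%), at 8.52% of promoter sites, at 8.04% of intergenic sites and in 0.503% of intron tiles. The 26 sites lay in 24 hosts, 22 were in both replicate lists, 10 lay at another transcript start, 7 also held a GATA match and 0 were near small RNA genes. Their median score was 42.5. Y43F8B.2 and zfp-1 each had 2 of them.

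Taking the repeat unit GAGAGA, the motif CGTCTC and the motif ACGCAG as one group, the 362 sites fell into 4 sets by sequence. GATA matches alone were present at 75 sites, GATA with any of these at 52, these without GATA at 88, and neither at 147 (40.6%). Windows with GATA alone averaged 37.8% GC ± 6.16 and those with the other sequences alone 46.2% ± 7.31 (SD over sites). Their median pooled scores, the value the sites were chosen by, were 43.0 with GATA alone, 39.4 with both, 34.0 with the other sequences alone and 31.6 with neither. GAGAGA itself was present at 30.7% of sites with a GATA match and 26.4% of those without.

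Hosts were next counted in gene lists drawn up with earlier results known, and these counts are descriptions. Over all protein-coding genes 1.48% were hosts, with 13.0 sites per Mb of eligible intron. Among 12 GATA factor genes 3 were hosts, with 6 sites, of which 5 held a GATA match. The 12 genes hold only 0.0332 Mb of eligible intron, which gives 181 sites per Mb. Of these sites 3 were at elt-3, 2 at egl-27, an MTA homologue with a GATA-type zinc finger, and 1 at egl-18, a GATA factor of the seam cells. The density per Mb includes the elt-3 sites, where signal from the transgene and from the chromosomal gene cannot be told apart. Of the 6 sites, 4 lay in the 5′ window of another annotated transcript, both egl-27 sites and 2 of those at elt-3. The egl-27 sites scored 77.5 and 35.3 and the egl-18 site 41.6. The egl-18 summit lay on a TGATAA in intron 1, 2100 bp from the 5′ end.

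Genes of epidermal fate, signalling and structure held 4 sites per list. In each of these lists 1 of the 4 sites held a GATA match. Per Mb of eligible intron this was 26.9 for epidermal transcription factors, 41.1 for Wnt pathway genes and 12.5 for genes of junctions, polarity and attachment, against 27.9 for muscle genes and 6.31 for neuronal genes. The 32 genes listed as epidermal transcription factors included lin-28, which encodes an RNA-binding timing factor and no transcription factor. Of these 32, 4 were hosts, which were lin-28 (40.1), mab-5 (35.2), lin-1 (28.6) and nhr-23 (28.1). The mab-5 gene encodes a Hox protein, lin-1 an ETS factor and nhr-23 a receptor that acts in moulting. Among 31 Wnt pathway genes 3 were hosts, with mom-1 far above pop-1 (31.2), the TCF homologue, and lit-1 (29.5 and 27.8), the Nemo-like kinase. Among 40 genes of junctions, polarity and attachment 4 were hosts, which were mua-6 (46.3), afd-1 (41.1), vab-10 (33.9) and ajm-1 (28.1).

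Lists of cuticle genes gave few sites by count. Over all protein-coding genes there were 13.0 sites per Mb of eligible intron. Sites per Mb of eligible intron were 26.8 for cuticle collagens, 0 for apical matrix genes, 38.2 for collagen-processing and cuticle enzymes and 18.9 for hedgehog-related and patched-related genes. Of 176 cuticle collagen genes 1 was a host, col-173, with a score of 46.2 and 2 TGATAA matches, and of 36 apical matrix genes 0 were. These collagen genes hold 0.0374 Mb of eligible intron in all, and the part of this in the count was not tested. Of 19 collagen-processing and cuticle enzymes 2 were hosts, pxn-1 (103), whose site lay at a snoRNA gene, and dpy-31 (34.5), an astacin protease. Neither of these sites held a GATA match. Of 88 hedgehog-related and patched-related genes 3 were hosts, wrt-9 (77.2), ptr-25 (49.7) and grl-7 (28.1), and wrt-9 and ptr-25 held GATA matches.

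Among 274 nuclear hormone receptor genes 13 were hosts, with 14 sites, or 32.9 per Mb of eligible intron. The highest after nhr-3 were nhr-14 (58.3), nhr-46 (48.1) and nhr-62 (44.8), and 4 of the 14 sites held a GATA match. Of 97 homeobox genes 1 was a host, mab-5, or 4.37 sites per Mb over 0.229 Mb of eligible intron. Markers of other tissues were counted as well. Of 35 muscle genes 4 were hosts, with 5 sites (dys-1, unc-89, unc-52 and ttn-1), of 45 neuronal genes 2 (unc-119 and unc-13), of 40 intestinal genes 0 and of 21 pharyngeal genes 0. A GATA match was present at 2 of the 5 muscle sites and 0 of the 2 neuronal sites. The intestinal and pharyngeal lists hold 0.0238 and 0.0310 Mb of eligible intron, and the part of this in the counts was not tested.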

How the data were processed

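Per the library listings, the authors listed peaks and background regions by replicate, using that replicate's alignments with a control, listed them again on both replicates pooled, and derived a thresholded list from these. The sources used here do not give the aligner, caller, threshold or read depth. The signal value of each deposited region, called its score here, has no stated scale, so it was used only within a list. The ce11 lists were used with WBcel235 (Ensembl release 115 annotation, RefSeq sequence). A replicate matched a site when its summit lay within 100 bp. Motifs were sought on both strands within 50 bp of summits, and pairs with exons in both flanks were left out (50 sites). Intervals are exact and cover counting error only. Tests run over sites, not over replicates, and neighbouring sites are not independent. Tools were Python 3.11.15, numpy 2.4.6, pandas 2.3.3, SciPy 1.17.1, statsmodels 0.14.6 and matplotlib 3.10.9. The 6-mer scan was tried on simulated windows of equal base composition. That trial says nothing of its calls under the GC difference between summits and flanks. Members, motifs and gene lists were chosen with earlier results of these data known. Named hosts were those of the 15 highest sites, of 3 or more sites, elt-3, up to 4 per list, and those at the rank limit; other genes were named after their values were seen. Alternatives covered windows, matching distance, motif, flank, GC content, member choice and each replicate alone.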

Additional observations from a re-analysis of the deposited data

How the results depend on the processing

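No paired analysis was possible because the study has 1 group, with no second group to share replicate numbers. Of 51 alternatives to the GATA tests, 33 kept direction and side of the threshold, and of 62 alternatives to the counts, 28 stayed equal or within 1.5 times. The 51 include the control hexamers in place of GATA for each of the 4 GATA tests, which do not measure robustness. For summits against flanks, flanks at 300 bp gave a difference of 2.81 percentage points, past no threshold, and the control hexamers gave -9.29. For introns against promoters, the call was lost within 25 bp (4.72), without sites at another transcript start (6.42), for TGATAA (5.17) and over GC quintiles (5.87, Mantel-Haenszel weighted), and the control hexamers gave -0.187. Introns against intergenic sites changed sign with the first 1000 regions (5.63) and with the thresholded list (5.95), neither past the threshold, and the rankings by single replicates gave -2.56 without replicate 1 to 0.39 without replicate 2. For both replicates against fewer, the call was lost within 25 bp (7.23) and 100 bp (12.0), with the thresholded list (36.1) and without other transcript starts (16.002). It was also lost for TGATAA (10.5) and with match distances of 50 bp (10.6) and 200 bp (14.2), and the control hexamers gave 3.01. The cause was not tested.

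The lower panel motifs numbered 0 within 25 bp, with the first 1000 regions, the thresholded list, flanks at 1000 bp and matched GC, and 1 within 100 bp, without other transcript starts and in either replicate alone. The 6-mers higher and lower than flanks numbered 21 and 20 within 25 bp, 167 and 114 within 100 bp, 23 and 31 for the first 1000 regions, 17 and 14 for the thresholded list, 42 and 37 without other transcript starts, 35 and 34 with flanks at 1000 bp, and 2 and 1 with matched GC. In the single-replicate rankings 40 (without replicate 2) to 81 were higher. Against promoters the higher and lower 6-mers numbered 8 and 25 within 100 bp, 2 and 0 for the thresholded list, 0 lower within 25 bp, for the first 1000 regions and without other transcript starts, 3 lower without small RNA genes, and 0 to 1 higher and 0 to 6 lower in the single-replicate rankings (0 lower without replicate 1). Smaller sets of sites or pairs also have less power. Of the added shares, that found in both replicates was 89.6% for the first 1000 regions and 94.8% for the thresholded list, and that in first introns was 26.7% for the thresholded list.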
